A study of Mus musculus with 87 samples.

Results

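The 8 mouse genes that serve as markers of the 2-cell embryo, Zscan4c, Zscan4d, Zscan4f, Zfp352, Usp17lc, Usp17le, Tcstv1 and Tcstv3, were followed by symbol through RNA sequencing of androgenetic haploid embryonic stem cells and semi-cloned embryos. All 8 were present among the 25277 genes of the count tables. Androgenetic haploid cells (AG-haESC) carry a paternal genome only, and semi-cloning uses such a cell instead of sperm to fertilise an oocyte. The haploid libraries were of the genotypes Dnmt TKO (n = 3), Dnmt STOP (n = 2) and Dnmt WT (n = 3). The embryo libraries were pIR and pWT 2C embryos (n = 4 each), pIR (n = 4) and pWT (n = 3) morulae, and pIR and pWT blastocysts (n = 4 each). The 56 remaining libraries came from pTKO, pIR and pWT tissues at E18.5 and P1. The sources used here do not say what STOP, pIR and the prefix p stand for, nor whether libraries of one genotype came from 1 clone or from pooled embryos, so p-values reflect only how these libraries varied, which may be technical.

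The mouse embryo switches on its own genome mainly at the 2-cell stage, and a brief wave of transcripts appears then and is lost within a few divisions. A small, changing fraction of embryonic stem cells re-enters a similar state in culture, and Zscan4 transcripts mark those cells. The homeobox factor Dux drives much of this wave. Zscan4 proteins combine a SCAN domain with zinc fingers and are linked to telomere lengthening and genome stability in mouse stem cells. Zfp352 encodes a zinc finger protein, the Usp17l genes encode deubiquitinating enzymes, and the Tcstv genes form a variable group named after the 2-cell stage. In bulk libraries, fewer cells in this state and less RNA per cell cannot be told apart.

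Some of the genes, the Zscan4 genes above all, have close copies near them (positions in mm10, GENCODE M21). Zscan4c (chromosome 7, 11005745–11010547, plus strand), Zscan4d (11161374–11166159, minus strand) and Zscan4f (11397915–11402318, plus strand) share one chromosome 7 cluster. Usp17lc (chromosome 7, 103415072–103419880, plus strand) and Usp17le (104768049–104777470, minus strand) lie farther along it, and the gene of a small RNA, Gm25774, lies within Usp17lc on the same strand. Tcstv1 (chromosome 13, 119893388–119894785, minus strand) and Tcstv3 (120316878–120318178, plus strand) lie on chromosome 13, and Zfp352 (90218820–90225702, plus strand) lies on chromosome 4. RefSeq promoters (GRCm38.p6, from 250 bases before to 50 after the start) were found for 5 of the 8 genes, and 4 are shown because they display how alike the Zscan4 copies are and which short motifs they share with a Usp17l gene. Capitals mark TATAAA, the TATA-box letters, and GATTNAAT, the core of the DUX-type motif, both searched on both strands, and no match overlapped another.
Zscan4c promoter, plus strand of chr7:11005495-11005794: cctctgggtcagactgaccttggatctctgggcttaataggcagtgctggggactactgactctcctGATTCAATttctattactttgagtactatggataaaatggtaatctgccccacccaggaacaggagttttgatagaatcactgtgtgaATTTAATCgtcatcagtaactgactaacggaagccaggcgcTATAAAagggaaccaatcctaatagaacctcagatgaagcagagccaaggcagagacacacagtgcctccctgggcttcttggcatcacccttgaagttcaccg
Zscan4d promoter, minus strand of chr7:11166099-11166398: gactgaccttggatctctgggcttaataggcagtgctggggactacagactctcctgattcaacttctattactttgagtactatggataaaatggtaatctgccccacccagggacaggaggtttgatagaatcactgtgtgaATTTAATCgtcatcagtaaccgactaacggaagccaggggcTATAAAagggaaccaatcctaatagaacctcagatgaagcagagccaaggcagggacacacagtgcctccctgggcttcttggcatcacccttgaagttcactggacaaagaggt
Zscan4f promoter, plus strand of chr7:11397665-11397964: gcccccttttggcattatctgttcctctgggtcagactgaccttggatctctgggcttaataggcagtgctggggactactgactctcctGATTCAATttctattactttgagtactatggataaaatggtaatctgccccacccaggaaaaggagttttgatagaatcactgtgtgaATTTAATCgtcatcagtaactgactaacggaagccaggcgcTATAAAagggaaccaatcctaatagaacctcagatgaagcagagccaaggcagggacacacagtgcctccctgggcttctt
Usp17lc promoter, plus strand of chr7:103416446-103416745: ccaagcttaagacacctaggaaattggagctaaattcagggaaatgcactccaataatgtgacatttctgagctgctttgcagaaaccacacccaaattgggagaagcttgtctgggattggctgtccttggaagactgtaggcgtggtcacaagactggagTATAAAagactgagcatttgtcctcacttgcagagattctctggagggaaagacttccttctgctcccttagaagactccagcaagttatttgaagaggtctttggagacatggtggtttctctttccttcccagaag

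The Zscan4 promoters were near copies of each other. The Zscan4c and Zscan4f windows were identical at 275 of 277 aligned positions, Zscan4c and Zscan4d at 280 of 287, and Zscan4d and Zscan4f at 259 of 266. Each held 1 TATAAA on the sense strand and 1 GATTNAAT on the antisense strand, 41 bases apart in all 3. Zscan4c and Zscan4f held a further GATTNAAT on the sense strand, while the Usp17lc window held TATAAA and no GATTNAAT, and the Zfp352 window held neither. The Usp17lc window (103416446–103416745) follows the RefSeq start and lies inside the gene as placed by GENCODE, which starts at 103415072. Among 32851 promoter windows of the same length, 13.6% held TATAAA and 1.96% held GATTNAAT on either strand. The 5 windows had 1 to 4 CpG dinucleotides, against a median of 7 over all windows, and 38.0% of all windows had at most 4. These matches describe the letters and show no binding.

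**Figure D1:**
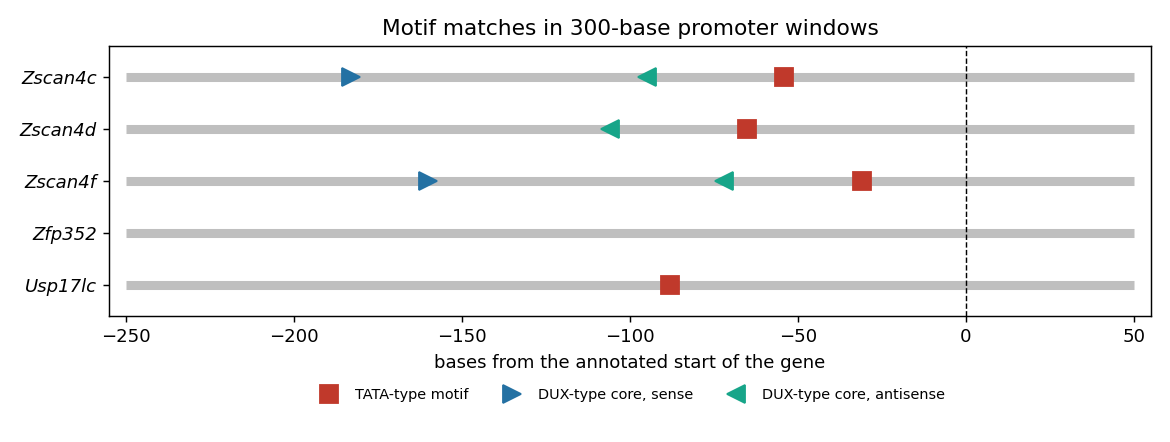
Positions of TATAAA (squares) and of the DUX-type core GATTNAAT on the sense (right-pointing) and antisense (left-pointing) strand in 300-base windows, in bases from the RefSeq gene start (dashed line). The motifs of the 3 Zscan4 genes keep the same 41-base spacing and are shifted as a block, and the Zfp352 window is empty.

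The close copies limit how reads can be assigned. Of the 150-base stretches of its transcripts, the length of 1 read, 77.4% of Zscan4f and 61.0% of Zscan4c also occurred in transcripts of other genes, mainly other Zscan4 genes and pseudogenes. The share was 29.4% for Usp17lc, 13.0% for Zscan4d and 0.75% for Usp17le, and it was 0 for Zfp352, Tcstv1 and Tcstv3. How the submitters treated reads that fit several places is not stated in any source used here, so the split of reads among Zscan4c, Zscan4f and their copies, and between Usp17lc and Usp17ld, is uncertain.

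Library totals were 16.8 to 24.5 M reads assigned to genes (M, mega) in haploid cells, 6.14 to 7.55 M in pIR and 10.9 to 24.0 M in pWT 2C embryos, 7.72 to 16.98 M at the morula and 9.66 to 14.9 M at the blastocyst stage. Levels below are CPM, reads per mega of that total. Dnmt1, the maintenance DNA methyltransferase, stood at 68.8 to 74.0 CPM in TKO, 572 to 601 CPM in STOP and 418 to 425 CPM in WT cells. The 8 markers of embryonic stem cells summed to 5363 to 5911 CPM in TKO, 5627 to 5650 CPM in STOP and 5990 to 6305 CPM in WT cells, all 8 with reads in each group. Oocyte markers, which mark maternal RNA, summed to 2289 to 5084 CPM at the 2C stage, 6.87 to 27.2 CPM at the morula stage and 3.21 to 16.02 CPM at the blastocyst stage. Trophectoderm markers summed to 2932 to 5611 CPM in blastocysts and at most 995 CPM in morulae. Of the 6 cumulus cell markers, Has2, Ptx3 and Fshr were at 0 in all 2C embryos, and the rest summed to 2.57 to 27.2 CPM. The labels name a kit for poly(A) RNA and a low-input kit without saying which served which library, so kit and sample type cannot be told apart in levels set across cells, stages and tissues.

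The 8 genes together made up 0.15 to 0.558% of each 2C library and almost nothing elsewhere. Their summed level was 2136 to 5585 CPM in pIR and 1498 to 5157 CPM in pWT 2C embryos. It was 0.618 to 3.43 CPM in TKO, 3.87 to 8.73 CPM in STOP and 4.41 to 7.58 CPM in WT haploid cells, and 1.22 to 8.02 CPM in pIR and 8.35 to 20.7 CPM in pWT morulae. In blastocysts it was at most 0.803 CPM. For 7 of the 8 genes every 2C library lay above every other library. The exception was Usp17le, whose lowest 2C libraries, at 0.0417 and 0.893 CPM in pWT, lay within or below the range of haploid cells.

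In haploid cells Zscan4d was the most abundant of the 3 Zscan4 genes in WT, and fewer Zscan4 reads were found in TKO cells than in WT cells. Zscan4d stood at 0.353, 0.19 and 1.02 CPM in TKO libraries 1 to 3, against 1.49, 2.499 and 2.26 CPM in WT libraries, so the TKO range lay wholly below the WT range. Zscan4f stood at 0.152, 0.095 and 0.532 CPM in TKO cells, against 0.834, 1.08 and 1.18 CPM in WT cells, again without overlap. Zscan4c stood at 0.152, 0.0475 and 0.654 CPM in TKO cells, against 0.417, 1.51 and 1.48 CPM in WT cells. Here TKO library 3 lay above the lowest WT library. The fitted log2 fold changes were -1.98 ± 0.59 (SE) for Zscan4d, -1.95 ± 0.73 for Zscan4f and -1.95 ± 0.81 for Zscan4c, and none passed the threshold of 0.05 (edgeR adjusted p = 0.0536, 0.1001 and 0.132). The reads behind them were few, 36, 18 and 20 over the TKO libraries and 124, 61 and 69 over the WT libraries.

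Among the deubiquitinase genes, Usp17le was lower in TKO cells. It stood at 0.152, 0.142 and 0.45 CPM in TKO cells, against 0.834, 0.849 and 1.43 CPM in WT cells, and the groups did not overlap. The log2 fold change was -2.03 ± 0.56 (edgeR adjusted p = 0.0440), which made Usp17le the 1 member of the 6 tested that fell, and it rested on 17 reads in TKO and 61 in WT cells. Across all 14959 genes tested 4.72% were called lower and 14.6% were called in either direction, and the median log2 fold change was 0.013, against -1.95 over the 6 tested members. Tcstv1 passed the filter on low counts through its STOP libraries alone. The other tested members passed it through their WT and STOP libraries, not through TKO libraries. That by itself favours negative values, so the medians are a description and no test. Usp17lc stood at 0, 0.095 and 0.286 CPM in TKO cells, against 0.298, 0.283 and 0.639 CPM in WT cells, and did not pass (log2 fold change -1.59 ± 0.89, edgeR adjusted p = 0.246).

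The remaining 3 genes were near the detection limit in haploid cells. Tcstv1 stood at 0.101, 0.0475 and 0.245 CPM in TKO cells, against 0.298, 0 and 0.295 CPM in WT cells (log2 fold change -0.52 ± 0.97, edgeR adjusted p = 0.744). Tcstv3, with 4 reads in TKO and 10 in WT cells, and Zfp352, with 3 and 12, did not pass the filter on low counts and were not tested. Pooled over libraries, Zfp352 was 4.48 times lower in TKO than in WT cells, with a counting interval (95%) of 1.21 to 24.7. A count of 3 reads over the TKO libraries corresponds to 0.0459 CPM, the floor used here where a group has no read.

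Which of these genes were called depended on single libraries. TKO library 3 held the highest TKO level of all 8 genes, 3.43 CPM in sum against 0.96 and 0.618 CPM in the others. Without it 5 members were lower than in WT cells, Zscan4d (log2 fold change -3.02, edgeR adjusted p = 0.000496), Usp17le (-2.86, 0.00225), Zscan4c (-3.56, 0.00399), Zscan4f (-3.11, 0.00544) and Usp17lc (-3.0006, 0.0325). Without any other single TKO or WT library none was called, and the adjusted p of Usp17le then ran from 0.0904 to 0.166. Dnmt1 in TKO library 3 was at most 74.0 CPM, the highest TKO value, against 418 CPM or more in WT cells. TKO library 3 also stood apart in 2 other preimplantation genes. Pramel6 was at 95.1 CPM in it, against 3.33 and 13.7 CPM in the other TKO libraries and 22.6 to 23.8 CPM in WT cells. Pramel7 was at 24.6 CPM in it, against 0.758 and 5.23 CPM in the other TKO libraries.

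**Figure D2:**
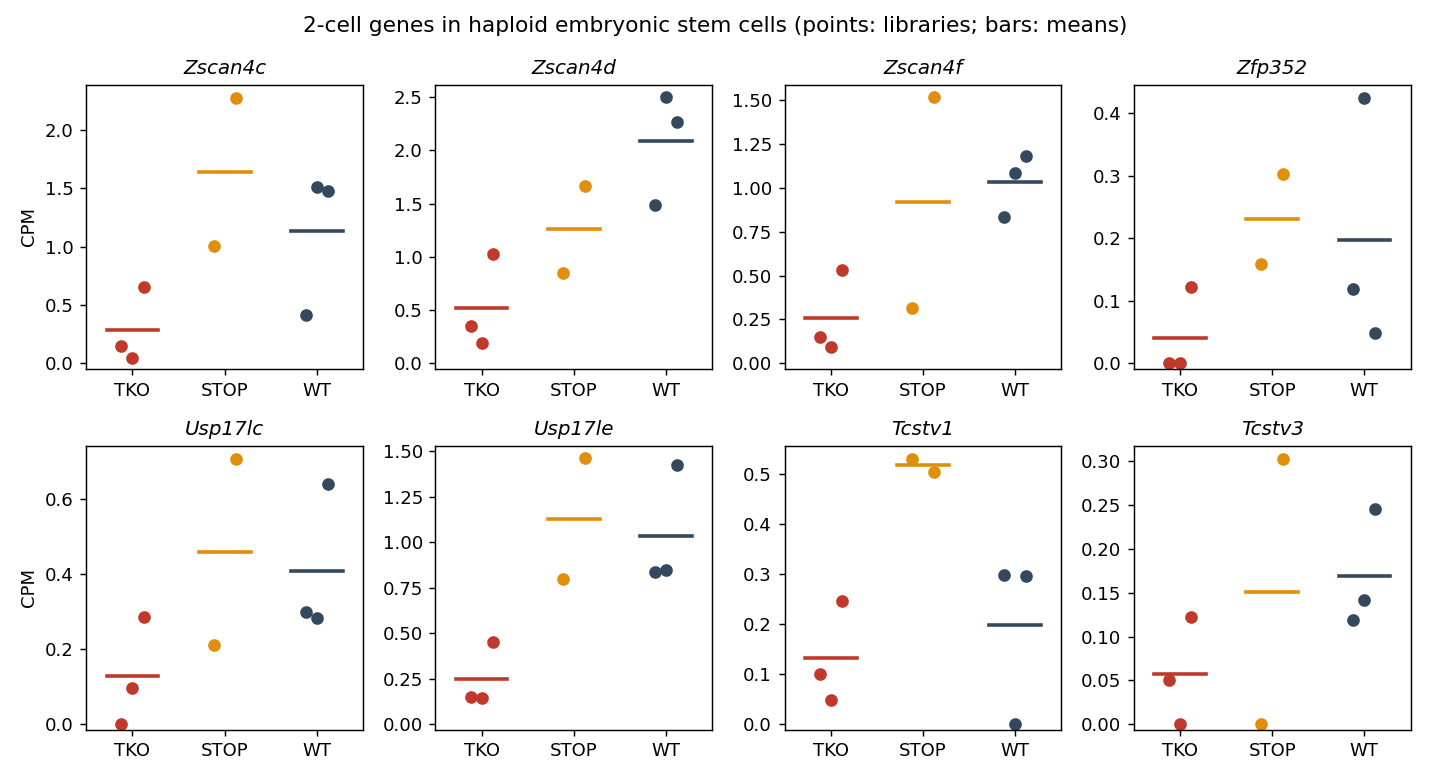
Level of each gene in CPM (vertical axis, a scale of its own per panel) in the TKO, STOP and WT haploid libraries, with points for libraries and bars for group means. The 3 TKO libraries lie below all WT libraries for Zscan4d, Zscan4f and Usp17le, and the highest TKO point in each panel is library 3.

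In STOP cells the ranges of most of these genes overlapped those of WT cells, with a wide gap between the 2 STOP libraries. Zscan4c stood at 1.007 and 2.27 CPM, Zscan4d at 0.848 and 1.67 CPM and Zscan4f at 0.318 and 1.51 CPM in STOP libraries 1 and 2. Usp17lc stood at 0.212 and 0.707 CPM, Usp17le at 0.795 and 1.46 CPM, Zfp352 at 0.159 and 0.303 CPM and Tcstv3 at 0 and 0.303 CPM. For these 7 genes STOP library 2 was the higher one and the STOP range overlapped the WT range. Tcstv1 stood at 0.530 and 0.505 CPM in STOP cells, above every WT library. It passed the filter on low counts only through these 2 STOP libraries, which by itself favours a positive value against WT cells. None of the 6 tested members was called between STOP and WT cells by edgeR or DESeq2, and none had an unadjusted p under 0.05, with estimates (log2 fold) from -0.83 ± 0.62 (Zscan4d, edgeR adjusted p = 0.337) to 1.30 ± 0.91 (Tcstv1, edgeR adjusted p = 0.302). Across all genes 23.1% were called in that comparison.

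Against TKO cells, STOP cells held more reads of every tested member, and no difference passed the test. No tested member passed the filter on low counts through TKO libraries. That by itself favours positive values here, so the shared sign is a description and no test. Log2 fold changes, STOP over TKO, were 2.37 ± 0.86 for Zscan4c, 2.05 ± 0.61 for Usp17le, 1.82 ± 0.93 for Tcstv1, 1.68 ± 0.79 for Zscan4f, 1.66 ± 0.96 for Usp17lc and 1.15 ± 0.65 for Zscan4d (edgeR adjusted p = 0.902 for each). By unadjusted p 2 of the 6 were under 0.05, DESeq2 called 0, and 6 of all 14959 genes, 0.0401%, were called. Both STOP libraries lay above all TKO libraries for Zscan4c, Zfp352, Usp17le and Tcstv1, and the groups overlapped for the other 4. The share of all genes whose groups separate in this way was not determined, in this or any other comparison. Such separations among the members are therefore given as a description. The 3 comparisons share libraries, so their signs are not independent of each other.

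**Figure D3:**
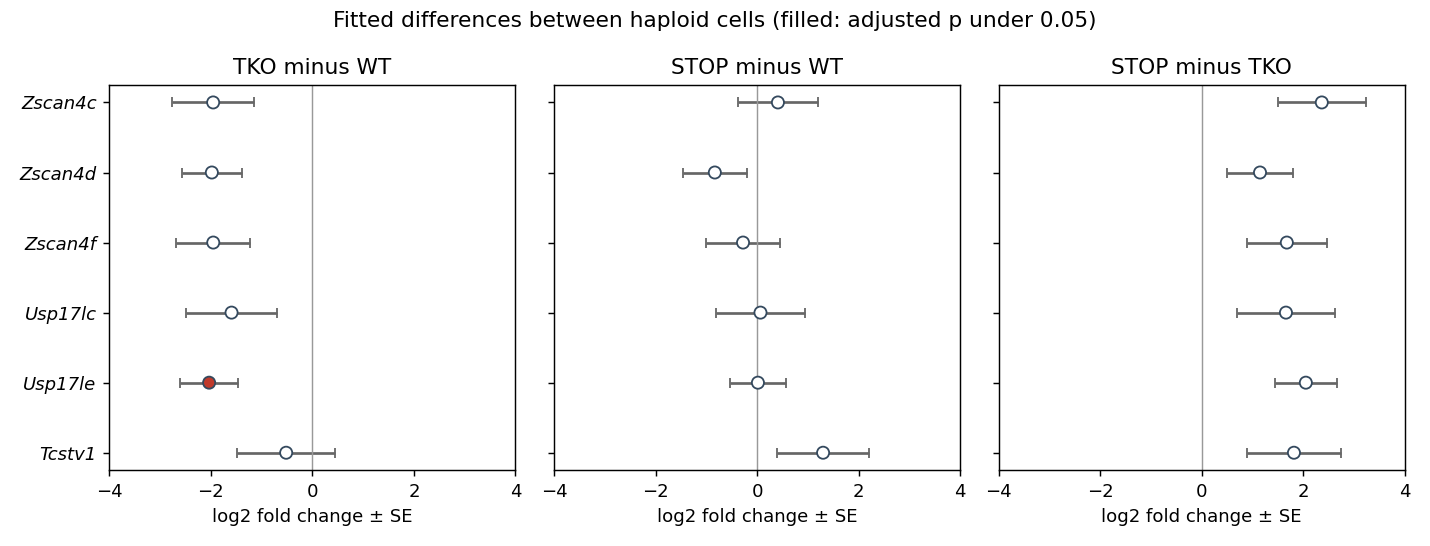
Fitted log2 fold changes with SE (horizontal axis) of the 6 members tested in haploid cells for TKO minus WT, STOP minus WT and STOP minus TKO, with a filled point where the adjusted p was under 0.05. Usp17le in TKO minus WT, at -2.03, carries the only filled point, and the STOP minus WT values lie from -0.83 to 1.30.

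Other genes of the 2-cell wave were read from a list of 40, of which 37 were measured. In TKO against WT cells 17 could be tested, 3 fell and none rose, with a median log2 fold change of -1.65. Listed genes with few reads in TKO cells share the limit of the filter given above. The 3 were the Usp17l copies Usp17lb and Usp17la and the predicted gene Gm2016. Usp17lb had 0, 2 and 0 reads in TKO, against 22, 37 and 38 in WT cells (edgeR adjusted p = 0.00542), and its pooled level was 54.3 times lower in TKO, with a counting interval of 14.6 to 455. In STOP cells it had 3 and 13 reads, below every WT library. Usp17la had 1, 1 and 4 reads in TKO, against 9, 13 and 20 in WT cells (log2 fold change -2.93 ± 0.63, 0.0193). Gm2016 had 3, 1 and 5 reads in TKO, against 17, 22 and 22 in WT cells (-2.92 ± 0.51, 0.00851). In these 3 genes every TKO library was under every WT library. Zscan4a, at -2.41 ± 0.73, did not pass (edgeR adjusted p = 0.0575). In STOP against WT cells and in STOP against TKO cells edgeR called 0 of the same 17 (2 and 8 had an unadjusted p under 0.05), with median log2 fold changes of 0.05 and 1.52.

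Listed factors that act on this wave were called at shares that can be read against the 14.6% of all genes in TKO and 23.1% in STOP cells: 1 of 6 activators and 3 of 18 repressors in TKO, and 2 of 6 and 6 of 18 in STOP cells. Dppa3, a maternal factor that limits DNA methylation maintenance, rose in TKO cells (47.6 ± 20.3 CPM in TKO and 6.57 ± 1.15 CPM in WT cells; log2 fold change 2.79 ± 0.27, edgeR adjusted p = 0.00108). It also rose in STOP cells (3.09 ± 0.29, 0.00141), where Dppa4 rose slightly (0.32 ± 0.10, 0.0460). Dux was not tested and had 1 to 5 reads in each TKO library, 2 and 10 in the STOP libraries and 1 to 2 in each WT library. Of 18 repressors tested in TKO cells, Lin28a (-0.92 ± 0.10, 0.00178) and Pcgf6 (-0.38 ± 0.07, 0.0112) fell and Smchd1, a silencing factor of the SMC family, rose (0.44 ± 0.10, 0.0193). In STOP cells 5 fell, with Lin28a (-1.14 ± 0.12, 0.00176), Zfp281 (-0.75 ± 0.14, 0.0115) and the corepressor Trim28 (-0.73 ± 0.17, 0.0228) among them, and Smchd1 rose (0.45 ± 0.11, 0.0205). Of 9 telomere factors, Dkc1, a part of telomerase, fell in TKO (-0.51 ± 0.12, 0.0235) and in STOP cells (-0.65 ± 0.13, 0.0139), and Pot1b, which binds telomere ends, rose in TKO cells (0.33 ± 0.09, 0.0493).

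Markers of other cell types in the haploid libraries were low. The 6 fibroblast feeder markers summed to 2.37 to 6.46 CPM in TKO, 4.61 to 6.61 CPM in STOP and 3.99 to 6.65 CPM in WT cells. The 8 trophectoderm markers summed to 49.0 to 63.3 CPM in TKO, 48.5 to 55.2 CPM in STOP and 73.2 to 91.1 CPM in WT cells. Of that list Cdx2 and Krt8 fell in TKO cells (edgeR adjusted p = 0.0226 with a log2 fold change of -2.62 ± 0.59, and 0.0492 with -1.28 ± 0.37), and Cdx2, Krt8 and Tead4 fell in STOP cells, where no member was called (0.0230 with -2.98 ± 0.72, 0.0434 with -1.42 ± 0.43, and 0.0159 with -0.64 ± 0.14). The 5 primitive endoderm markers summed to 2.62 to 4.29 CPM in TKO, 4.82 to 4.90 CPM in STOP and 3.10 to 4.24 CPM in WT cells, with Sox17 called higher and Sox7 lower in both TKO and STOP cells. Of the 8 stem cell markers 1 was lower in TKO cells, Pou5f1, beside 4.72% of all genes called lower. In STOP cells 4 of them were lower, Utf1, Pou5f1, Esrrb and Tdgf1, beside 9.37% of all genes called lower. The part of these markers in the difference in 2-cell genes was not tested. Over the 8 haploid libraries, the genes whose log2(CPM + 1) followed that of the summed members most closely were Mael, a factor of the piRNA pathway in the germ line (Pearson r = 0.979), Sord (0.963), Map2k4 (0.933), Vamp7 (0.929) and Kpna1 (0.924), out of 10576 genes searched. These libraries share the genotype groups, and the 5 values are a description.

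In 2C embryos all 8 genes were read in every library, and by group mean Zscan4d was the highest and Usp17le the lowest in both genotypes. Zscan4d stood at 875, 890, 2359 and 665 CPM in pIR embryos 1 to 4, against 2664, 660, 290 and 2396 CPM in pWT embryos 1 to 4. Zscan4c stood at 576, 513, 1250 and 161 CPM in pIR embryos, against 759, 118, 332 and 635 CPM in pWT embryos. Zscan4d exceeded Zscan4c in every pIR library, while in pWT library 3 Zscan4c was the higher one. Zscan4f was steadier, at 613, 615, 940 and 298 CPM in pIR embryos, against 552, 367, 389 and 531 CPM in pWT embryos. All 3 pIR ranges overlapped those of pWT.

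Zfp352 reached levels like those of Zscan4c and Zscan4f, and the Tcstv genes had lower means than these 3. Zfp352 stood at 538, 366, 560 and 567 CPM in pIR embryos, against 732, 444, 294 and 413 CPM in pWT embryos. Tcstv3 stood at 164, 250, 288 and 219 CPM in pIR embryos, against 199, 246, 127 and 388 CPM in pWT embryos. Tcstv1 stood at 60.9, 136, 92.6 and 83.9 CPM in pIR embryos, against 87.2, 109, 46.8 and 158 CPM in pWT embryos. These 3 genes differed by at most 3.37 times between libraries of one group. The Usp17l genes spread more widely: Usp17lc stood at 66.4, 13.0, 80.7 and 134 CPM in pIR embryos, against 152, 63.7, 20.0 and 74.0 CPM in pWT embryos. Usp17le stood at 12.8, 33.3, 14.0 and 8.08 CPM in pIR embryos, against 12.4, 0.893, 0.0417 and 18.9 CPM in pWT embryos, the last range holding 1 read in library 3 and 360 in library 4.

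No member was called between pIR and pWT 2C embryos by edgeR or DESeq2, none had an unadjusted p under 0.05, and the ranges of all 8 overlapped. Log2 fold changes ran from -0.33 ± 0.64 (Zscan4d) to 1.05 ± 1.30 (Usp17le), 4 of them positive and 4 negative, with an edgeR adjusted p of 1.000 for each. In the whole comparison 0 of 11076 genes were called (0%), 235 had an unadjusted p under 0.05, and DESeq2 called 8, none of them a member. The SE of a log2 fold change ran from 0.33 for Zfp352 to 1.30 for Usp17le, and a p above the threshold does not show that the genotypes were alike. The pIR libraries were also the shallower ones. The pWT columns of the embryo tables carry another name and were matched to samples by elimination, so every pIR and pWT comparison in embryos rests on that match.

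Per transcript length Zscan4d had the highest mean in both genotypes, though not in every library, at 527 CPM per kb in pIR and 661 CPM per kb in pWT 2C embryos. Zscan4f, Tcstv3, Zscan4c and Zfp352 followed between 223 and 315 CPM per kb in pIR and between 203 and 308 CPM per kb in pWT embryos, in another order in each genotype, and neighbours in the order overlapped. Zscan4d was the highest in all 4 pIR libraries and in pWT libraries 1 and 4, while Tcstv3 was the highest in pWT library 2 and Zscan4f in pWT library 3. Tcstv1 (66.8 CPM per kb in pIR and 71.7 in pWT embryos), Usp17lc (29.9 and 31.5) and Usp17le (8.58 and 4.06) came last. Usp17le held 0.25 to 1.09% of the summed CPM per kb of the 8 genes in pIR 2C embryos and 0 to 0.39% in pWT 2C embryos. In haploid cells its share was 13.0 to 24.1% in TKO, 16.7 to 20.9% in STOP and 13.2 to 19.0% in WT cells, and no haploid library overlapped a 2C library. Zfp352 went the other way, with 8.82 to 21.4% in pIR and 7.45 to 17.03% in pWT 2C embryos and at most 5.78% in haploid cells.

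**Figure D4:**
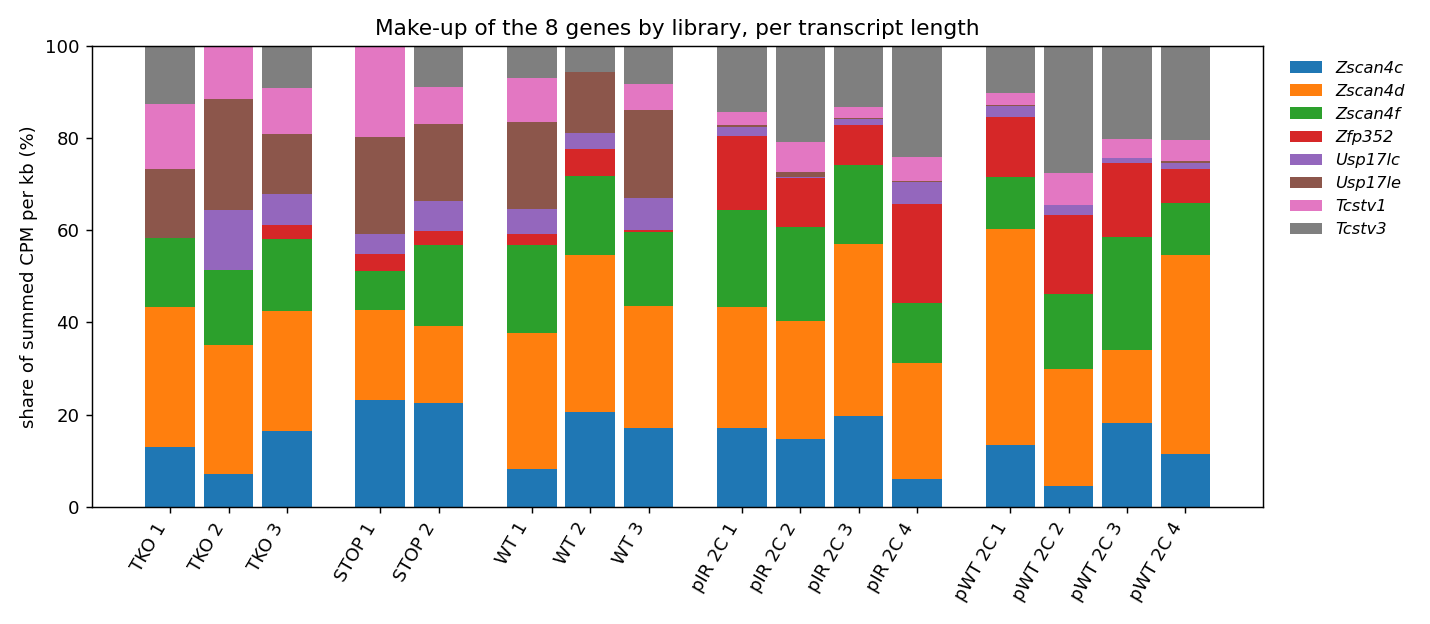
Share of each gene in the summed CPM per kb of the 8 genes (vertical axis, in %) in each haploid and 2C library, with stacked bars in the order of the legend. The brown band of Usp17le is 13.0% or more in every haploid library and at most 1.09% in every 2C library, while the red band of Zfp352 is wide only in 2C embryos.

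In pIR morulae 86.4% or more of the summed CPM per kb of the 8 genes in each library came from the Tcstv genes, and in pWT morulae 71.1% or more. Tcstv3 stood at 3.18, 0.734, 7.34 and 4.61 CPM in pIR morulae, against 7.04, 14.8 and 6.98 CPM in pWT morulae. Tcstv1 stood at 0.236, 0.163, 0.539 and 1.11 CPM in pIR morulae, against 1.31, 4.28 and 0.963 CPM in pWT morulae. Both ranges overlapped, by 1 pIR library each, and neither difference passed the test (log2 fold change -1.13 ± 0.79 for Tcstv3 and -1.91 ± 1.36 for Tcstv1, edgeR adjusted p = 0.603 and 0.610). In that comparison 0.136% of 11773 genes were called. The other 6 genes did not pass the filter on low counts, and for all of them but Usp17le 1 library held most of the reads. Usp17le had 1 read in pWT morula 2, 1 in pIR morula 1 and 2 in pIR morula 3. In pWT morula 3 were 31 of 31 morula reads of Zscan4c, 36 of the 40 of Zscan4f, 5 of 5 of Zfp352, 1 of 1 of Zscan4d and 35 of the 47 of Usp17lc. The other 12 of Usp17lc lay in pWT morula 2, 4 reads of Zscan4f lay in pIR morula 2, and Zscan4c, Zscan4d, Zfp352 and Usp17lc had no read in any pIR morula. Oocyte markers in pWT morula 3 summed to 13.6 CPM, between 6.87 and 25.6 CPM in the other pWT morulae.

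In blastocysts 7 of the 8 genes had no read in any of the 8 libraries, where 3 reads over a group would correspond to 0.0727 CPM in pIR and 0.0646 CPM in pWT. The exception was Tcstv1, at 0.691, 0, 0.402 and 0.803 CPM in pIR blastocysts (20 reads in all) and 0 in all 4 pWT blastocysts. Pooled over libraries it was at least 7.50-fold higher in pIR blastocysts, and the ranges met at 0. No member passed the filter on low counts there, so none was tested, in a comparison in which 10.6% of 12056 genes were called.

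**Figure D5:**
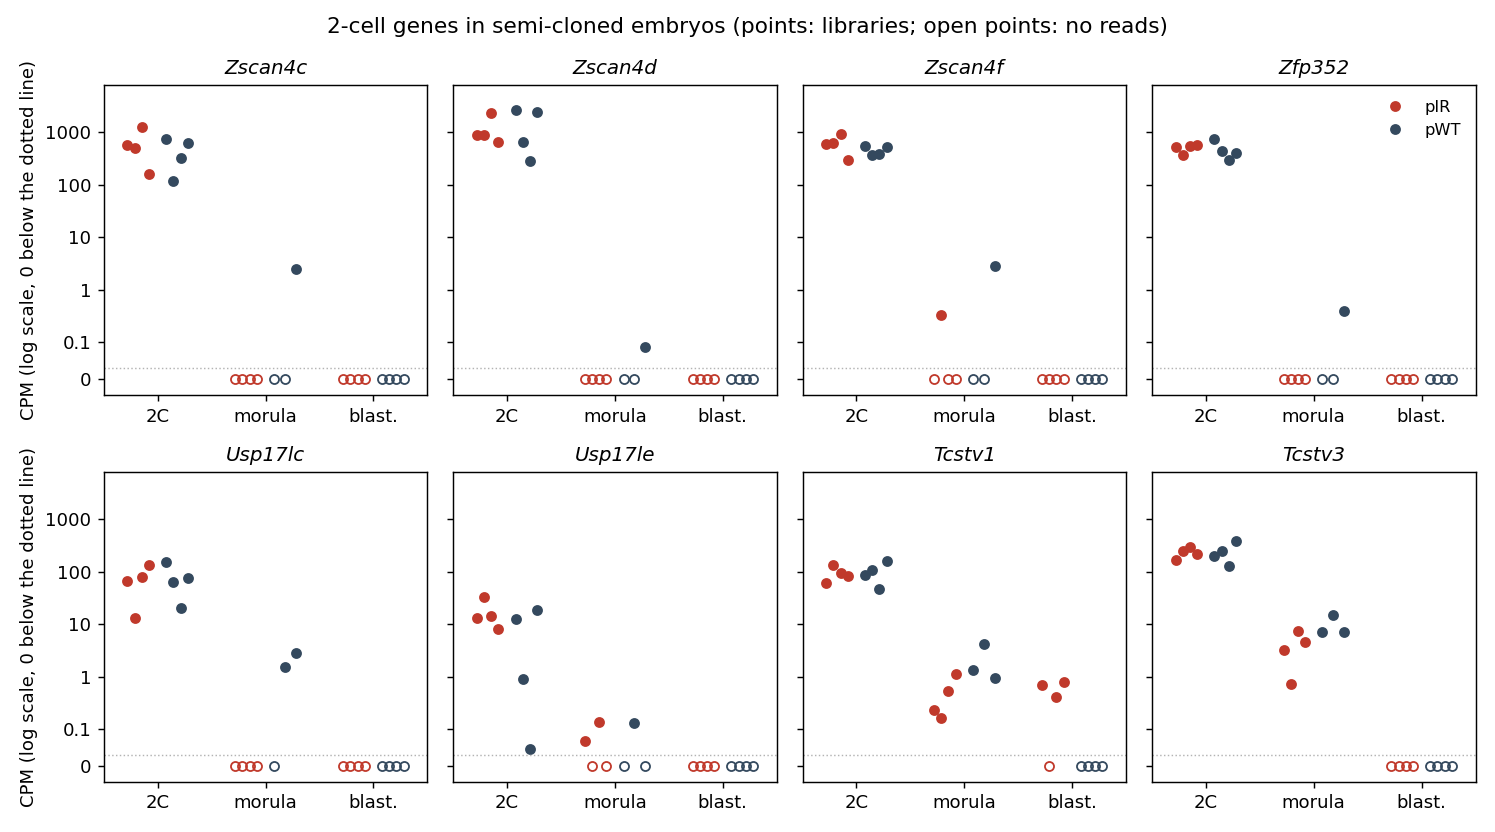
Level of each gene in CPM (vertical axis, log scale) in pIR and pWT embryos at the 2C, morula and blastocyst (blast.) stages, with 1 point per library and open points below the dotted line for libraries with no read. All genes lie between 0.0417 and 2664 CPM at the 2C stage, the single raised pWT point among the morulae of 4 panels is morula 3, and Tcstv1 has points above 0 in 3 pIR blastocysts.

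All 8 genes fell between the 2C and the morula stage in both genotypes. In pIR embryos the 8 were called lower (edgeR adjusted p = 0.00111 for Usp17le and 3.01e-05 or less for the others), with a log2 fold change of -6.22 ± 0.66 for Tcstv3 and -7.84 ± 0.88 for Tcstv1, and every morula lay below every 2C embryo. In pWT embryos the 8 were called lower (edgeR adjusted p = 0.00491 or less), with a log2 fold change of -5.30 ± 0.71 for Tcstv3 and -6.19 ± 0.93 for Tcstv1, and of the 8 only Usp17le overlapped. Of all 16022 genes tested, 27.5% were called lower in pIR (48.3% in either direction) and 24.8% in pWT embryos (45.9% in either direction), and the median log2 fold change was -0.24 in pIR and -0.19 in pWT. Except for Tcstv1 and Tcstv3, the members passed the filter on low counts only through their 2C reads. That by itself favours a fall, so these shares are given as a description. The 2C libraries were deposited in a table apart from the later stages, so table and stage cannot be told apart.

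The size of the drop differed between genes. In pIR embryos the pooled level in morulae was at least 21940-fold lower than in 2C embryos for Zscan4d, at least 11438-fold lower for Zscan4c, at least 9679.5-fold lower for Zfp352 and at least 1397-fold lower for Usp17lc, counting 3 reads over the morulae as the floor. It was 56.0 times lower for Tcstv3 and 186 times lower for Tcstv1. In pWT embryos the drop was 27.3 times for Tcstv3, 53.7 times for Tcstv1 and 50.2 times for Usp17lc, against 495 times for Zscan4c, 449 times for Zscan4f and 3109 times for Zfp352, the last 3 resting on the reads of morula 3. For Zscan4d 1 read remained in pWT morulae, a ratio of 47101 with a counting interval of 8453 to 1860400, which spans the pIR bound of 21940. The Tcstv genes had the smallest pooled drop in pIR embryos, and Tcstv3 had it in pWT embryos.

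Whether the drop differed between genotypes was tested directly, and edgeR called no member, while 4 had an unadjusted p under 0.05 and DESeq2 called 1. The interaction estimates, pIR drop minus pWT drop, were all negative, from -6.82 ± 1.93 for Usp17lc (edgeR adjusted p = 0.142) and -6.65 ± 2.31 for Zscan4c (0.225) to -0.36 ± 6.48 for Usp17le (1.000). Across all genes 0.374% were called. The estimates for Zscan4c, Zscan4d, Zfp352 and Usp17lc set pIR morulae with no reads against reads in pWT morula 3, and for Usp17lc also in pWT morula 2. For Zscan4f 4 reads in pIR morula 2 stood against those in pWT morula 3. The size of these estimates depends on how a count of 0 is fitted.

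Between morula and blastocyst most remaining reads were lost. In pIR embryos only Tcstv3 was called lower, at least 55.9-fold (edgeR adjusted p = 0.000149), where 2.73% of 16022 genes were called lower and 5.79% in either direction. Tcstv1 had 20 reads in pIR blastocysts and 29 in pIR morulae and did not pass (log2 fold change -0.35 ± 0.75, edgeR adjusted p = 0.917). In pWT embryos 4 members were called lower, against 2.71% of all genes called lower and 4.51% in either direction. They were Tcstv3 (at least 134-fold, edgeR adjusted p = 6.73e-05), Tcstv1 (at least 28.2-fold, 0.000787), Usp17lc (at least 20.1-fold, 0.0270) and Zscan4f (at least 15.4-fold, 0.0463). Usp17lc and Zscan4f did not pass the filter on low counts within morulae or within blastocysts. Both were tested here only because their 2C reads kept them in the shared fit, and their ranges met at 0. Without pWT morula 3, and likewise without any one of the 4 pWT blastocysts, 2 members were called, and without pWT morula 2 it was 3. The difference of this stage change between genotypes was called for no member by edgeR and for 1 by DESeq2, where edgeR called 0.00624% of genes. The 1 member with an unadjusted p under 0.05 was Tcstv1 (pIR change minus pWT change 7.22 ± 1.43, edgeR adjusted p = 0.173).

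The rest of the 2-cell list moved with the members across stages. Between 2C and morula 29 of 35 tested genes fell and 2 rose in pIR embryos, and 28 fell and 2 rose in pWT embryos. Of all genes, 27.5% were called lower in pIR and 24.8% in pWT embryos. Listed genes with few or no morula reads passed the filter on low counts through their 2C reads. That by itself favours a fall, so these counts are a description. With counts under 3 set to that floor, the median log2 ratio of pooled levels was -8.63 in pIR and -7.04 in pWT embryos. Gm21319, a predicted gene of the list, went down to 0.0463 CPM in pIR morulae, against 335 CPM in pIR 2C embryos, a pooled ratio of 6210 with a counting interval of 2124 to 30118 (edgeR adjusted p = 5.56e-09). In pWT embryos it stood at 0.0432 CPM in morulae, against 190.5 CPM in 2C embryos (edgeR adjusted p = 7.76e-08). Pramel6, which limits DNA methylation in mouse preimplantation cells, was one of the 2 that rose, to 1115 CPM in pIR morulae, against 66.9 CPM in pIR 2C embryos (log2 fold change 3.77 ± 0.42, edgeR adjusted p = 2.66e-07). Of 11 activators tested, 6 fell and 2 rose in pIR and 5 fell and 2 rose in pWT embryos. The homeobox genes Obox5 and Obox3 fell in pIR embryos, to 1 read over the morulae against a mean of 11983 CPM in 2C embryos for Obox5 (edgeR adjusted p = 3.27e-09), and to 0 against 669 CPM for Obox3 (1.41e-07). Dppa2, a chromatin factor that acts upstream of Dux, rose in pIR (log2 fold change 2.43 ± 0.35, edgeR adjusted p = 8.12e-06) and in pWT morulae (1.68 ± 0.36, 0.000735). Dux itself had 0 to 11 reads in pIR and 16 to 40 in the deeper pWT 2C libraries. In CPM these ranges overlapped, at 0 to 1.49 CPM in pIR and 0.893 to 3.67 CPM in pWT 2C embryos. Dux was not tested between pIR and pWT 2C embryos, and it had no read in any morula or blastocyst.

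Later changes in the list were smaller in number. Of all genes, 2.73% in pIR and 2.71% in pWT embryos were called lower between morula and blastocyst. Between morula and blastocyst 6 of 35 listed genes fell in pIR and 11 fell in pWT embryos, none rising in either, with Sp110 (log2 fold change -3.68 ± 0.61 in pIR and -3.91 ± 0.63 in pWT embryos, edgeR adjusted p = 0.000716 and 0.000731) and Pramef6 (-2.28 ± 0.48 and -3.64 ± 0.56, 0.00593 and 0.000435) called in both. Between pIR and pWT, none of the listed genes (33 tested at the 2C, 15 at the morula and 8 at the blastocyst stage) was called by edgeR, and 0, 2 and 3 of them had an unadjusted p under 0.05. In blastocysts 1 of 6 activators and 1 of 9 telomere factors were called, beside the 10.6% of all genes given above. Nr5a2, an activator of early embryonic genes, was lower in pIR (-0.97 ± 0.24, 0.0230), and the telomere protein gene Acd was higher (0.87 ± 0.23, 0.0274), and with all embryo libraries in the fit 0 genes were called there, so both calls ended.

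Over the 23 embryo libraries the genes that followed the summed members most closely were BC147527 (Pearson r = 0.991 of log2(CPM + 1)), Unc13c (0.987), Gm21818 (0.986), Mat2b (0.985) and Npm2, a maternal nucleoplasmin (0.985), out of 10279 genes searched. These libraries share stages and tables, and the values are a description. In tissues the genes were silent within the depth available: 49 of the 56 libraries, with 10.7 to 37.4 M reads, had no read of any member. The highest level was 0.133 CPM, from 2 reads of Usp17lc in 1 pIR P1 heart, under the floor of 3 reads.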

How the data were processed

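Per the labels' protocols, RNA was extracted with TRIzol and sequenced as 150-base paired reads. Per the submitters' processing notes, Trim Galore 0.6.6, HISAT2 2.1.0, featureCounts 1.6.4 and the build mm10 were used. The authors deposited raw counts per gene in 10 tables of 25277 symbols. For 11 embryo columns the name matched no sample, and they were given to the pWT samples with that stage and number, the only ones without a column. Strand and multiple mapping are not given in the sources used here.

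Genes kept by filterByExpr (minimum count 10) were scaled by TMM and tested in R 4.3.3 by quasi-likelihood (edgeR 4.0.16), with Benjamini-Hochberg adjustment over all genes tested and a threshold of 0.05. The 8 haploid libraries shared 1 fit, each pIR and pWT comparison used its own stage, and stage changes used all 23 embryo libraries. SE is the log2 fold change over the square root of F, and simulated counts with set changes served to check the fit. Of 4-fold changes 90.0% were recovered in TKO minus WT cells, 12.2% in pIR minus pWT 2C embryos and 16.0% in pWT morula minus 2C. Of 16-fold changes 100%, 70.8% and 38.8% were recovered, so many set changes in embryos were missed. The changed genes were drawn at random from all genes kept. In haploid cells these shares therefore do not describe genes with as few reads as the members. CPM use library totals and CPM per kb the GENCODE M21 exon length. Counting intervals and floors (3 reads over a group) cover counting error only.

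Members and lists were chosen with earlier results of these data known. Besides the members, the text names up to 4 called genes of a list with the smallest p and the 5 genes most like the summed members with a mean of at least 5 CPM. Zscan4a, Dux and, in haploid cells, Pramel6 and Pramel7 were added after their values were seen. Alternatives were median-of-ratios scaling, DESeq2 1.42.0, all genes unfiltered, the replicate number as a block, a wider or narrower set of samples per model and leaving out each library in turn.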

Additional observations from a re-analysis of the deposited data

Results flagged for a closer look

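In groups of 4 libraries a value was singled out where its gap to the nearest other library exceeded 0.829 of the range of the group, a bound that chance passes in about 1 of 20 groups. Of 25 sets of values tested, 3 passed. Zscan4d in pIR 2C embryo 3 stood at 2359 CPM (2359.051 before rounding), against 665 to 890 CPM in the other pIR 2C embryos. Zfp352 in pIR 2C embryo 2 stood at 366 CPM (365.777 before rounding), against 538 to 567 CPM in the others. Zscan4f in pIR morula 2 stood at 0.326 CPM, from 4 reads, against 0 in the other pIR morulae.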

How the results depend on the processing

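Of the 616 values of single members under alternatives, 566 kept their direction and side of the threshold. In TKO minus WT cells the members called, 1 in the reported fit, were 2 with DESeq2, with no filter and with the replicate block, each time with Zscan4d added (adjusted p = 0.0153, 0.0404 and 0.0303), and 0 with the 2 genotypes alone; leaving out 1 library gave 0 to 5. In blastocyst minus morula, pWT, the 4 called members were 2 with the replicate block and 2 with pWT alone in the fit, and 2 to 4 with 1 library left out. DESeq2 called 1 member in each of the 2 genotype-by-stage differences, where edgeR called 0. The counts of members called in the other comparisons were the same under every alternative run, the replicate block and the left-out libraries included. The replicate numbers were not shown to pair the libraries (correlations of deviations 0.0148, 0.313 and 0.317 for TKO and WT), and the causes of these shifts were not tested.

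Directions that turned were of small, uncalled values. Zfp352 in pIR minus pWT 2C embryos was -0.0059 with all embryo libraries in the fit. With 1 library left out, log2 fold changes in that comparison ran from -0.0661 to 0.3208 for Zfp352, -0.9396 to 0.0403 for Zscan4d, -0.2051 to 0.7631 for Zscan4c, -0.5207 to 0.3961 for Usp17lc, -0.4007 to 0.1711 for Tcstv1 and -0.3041 to 0.2397 for Tcstv3. In STOP minus WT cells they ran from -1.0193 to 0.6686 for Usp17lc, -0.476 to 0.3801 for Usp17le, -0.2751 to 0.8734 for Zscan4c and -1.7756 to 0.4339 for Zscan4f. For Tcstv1 in blastocyst minus morula, pIR, they ran from -0.6738 to 0.3561.

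Counts of all genes called moved by over 1.5 times in some settings. DESeq2 gave 10 in STOP minus TKO, 8 in 2C, 335 in morulae, 2191 in blastocysts, 1747 and 1945 in blastocyst minus morula of pWT and pIR, and 718 and 98 in the genotype-by-stage differences. Fits of 2 genotypes alone gave 1291 in TKO and 8133 in STOP minus WT. With all embryo libraries 2C gave 191 and blastocysts 0. Morulae gave 58 with no filter and 1 with the replicate block, which gave 33 in the difference of morula minus 2C, and blastocyst minus morula gave 375 with pWT alone.

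Depth limits the haploid values, where no member exceeded 124 reads over a group, and values of 0 in later embryos are limits set by 3 reads per group.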
